A study of Homo sapiens with 9 samples.

Results

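The genes described here encode 6 proteins that the liver secretes into blood: APOH, APOA1, APOA2, APOC3, TTR and AHSG. They were taken by gene symbol from the 14884 genes named on the array, and each was read by 1 probe set (16847979, 16744723, 16695643, 16731575, 16851786 and 16949311, in that order). The cells were A549, an established human lung adenocarcinoma line that grows as an attached layer, cultured for 5 days in serum-supplemented DMEM in 96-well plates. The control group grew on ordinary attachment plates with water added to the medium, the second group on low-attachment plates with the same medium, and the third on low-attachment plates with FP001, a medium additive, at 0.015% (w/v). Each group had 3 arrays, all of 1 cell line, and nothing in the labels says that they came from separate cultures. Attachment replicate 1 was left out, which leaves 2 attachment arrays beside the 3 in each of the other groups. Its highest rank correlation with a kept array was -0.00191, whereas kept arrays correlated with each other at 0.961 to 0.985. Median intensity on the 8 kept arrays lay between 23.3 and 24.1.

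Apolipoproteins are the protein parts of lipoprotein particles, which carry cholesterol and triglycerides through blood. APOA1 and APOA2 are the main proteins of high-density lipoprotein, and APOC3 slows the breakdown of triglyceride-rich particles by lipoprotein lipase. APOH, or beta-2-glycoprotein I, binds anionic phospholipids and is the main antigen of antiphospholipid antibodies. TTR, transthyretin, carries thyroxine and, with retinol-binding protein, vitamin A. AHSG, fetuin-A, keeps calcium phosphate in solution in serum. In the liver such genes are driven by transcription factors of the HNF1, HNF4, FOXA and C/EBP families.

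The 6 genes were chosen with their intensities on these 8 arrays in view. Their levels and differences between groups are therefore given as a description, with no test. APOH was higher on all 6 low-attachment arrays than on both attachment arrays, TTR and AHSG were higher too by smaller amounts, and APOA1, APOA2 and APOC3 differed little between groups. In cells read in bulk, fewer cells that express a gene and less RNA per cell cannot be told apart.

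Promoter sequences from RefSeq (build GRCh38.p14) were at hand for 3 of the 6 genes, and the 250 bases upstream of the start are shown for them because APOH and AHSG were higher on low-attachment plates whereas APOA2 was not. Capitals mark matches, on either strand, to motifs of liver-type factors or to the TATA box.
APOH, chr17:66229416-66229665, minus strand: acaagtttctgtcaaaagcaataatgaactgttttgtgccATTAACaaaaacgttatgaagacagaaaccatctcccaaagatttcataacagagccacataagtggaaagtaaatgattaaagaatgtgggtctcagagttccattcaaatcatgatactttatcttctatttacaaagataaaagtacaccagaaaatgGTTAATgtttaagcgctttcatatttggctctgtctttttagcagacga
AHSG, chr3:186612810-186613059, plus strand: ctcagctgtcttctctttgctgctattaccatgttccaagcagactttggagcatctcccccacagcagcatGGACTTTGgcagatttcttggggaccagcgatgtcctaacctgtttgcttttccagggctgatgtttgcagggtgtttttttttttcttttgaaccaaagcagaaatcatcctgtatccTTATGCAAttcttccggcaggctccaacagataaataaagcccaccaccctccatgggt
APOA2, chr1:161223629-161223878, minus strand: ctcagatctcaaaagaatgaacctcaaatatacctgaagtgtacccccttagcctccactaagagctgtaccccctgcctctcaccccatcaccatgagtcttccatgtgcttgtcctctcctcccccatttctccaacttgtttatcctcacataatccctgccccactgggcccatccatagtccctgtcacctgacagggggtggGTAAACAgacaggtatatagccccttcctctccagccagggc

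The motifs were searched on both strands over the 250 upstream bases. The APOH sequence held the HNF1 half-site GTTAAT at -210 to -205 and at -49 to -44, counted from the start, and 6.23% of 35116 RefSeq promoters of the same length held it. The AHSG sequence held the HNF4 motif CAAAGTCC at -178 to -171, found in 1.02% of promoters, and the C/EBP motif TTGCNNAA at -59 to -52, found in 9.05%. The APOA2 sequence held the FOXA motif TGTTTAC at -42 to -36, found in 2.98%. The TATA box TATAAA, found in 10.7% of promoters, was in none of the 3 sequences. No match overlapped another. These matches describe letters only. Other forms of these sites were not searched, so a stretch without capitals may still hold one. In the letters searched, the 3 genes shared no motif of the 5.

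APOH had the widest range among arrays of the 6. On attachment replicates 2 and 3 its intensity was 1327 and 802.7. On low-attachment replicates 1, 2 and 3 it was 3165, 2116 and 2442, and with FP001 it was 2603, 1690 and 1739. Neither low-attachment group overlapped the attachment group, and the low-attachment groups overlapped each other. Mean intensity, turned back from the log2 scale, was 1032 on attachment plates (log2 SD 0.51, n = 2), 2538 on low-attachment plates (0.29, n = 3) and 1971 with FP001 (0.35, n = 3). APOH was thus 2.46-fold higher on low-attachment plates than on attachment plates, a log2 difference of 1.30 ± 0.24 (standard error, SE, of the fit), and 1.91-fold higher with FP001 (0.93 ± 0.24). The attachment arrays differed from each other, so that without attachment replicate 3 the log2 differences were 0.94 and 0.57, and without attachment replicate 2 they were 1.66 and 1.30. FP001 against normal medium on low-attachment plates gave -0.37 ± 0.21, and leaving out 1 array moved this from -0.21 (without low-attachment replicate 1) to -0.57 (without FP001 replicate 1).

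In both low-attachment groups replicate 1 was the highest array for APOH. The correlation of all genes' deviations from their group means was 0.469 for the arrays numbered 1, 0.301 for those numbered 2 and 0.227 for those numbered 3, so same-numbered arrays of these groups varied together. APOH was lower with FP001 in all 3 same-numbered pairs. With the replicate number as a block, the SE of the FP001 difference for APOH fell from 0.21 to 0.13, at the same log2 difference.

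**Figure D1:**
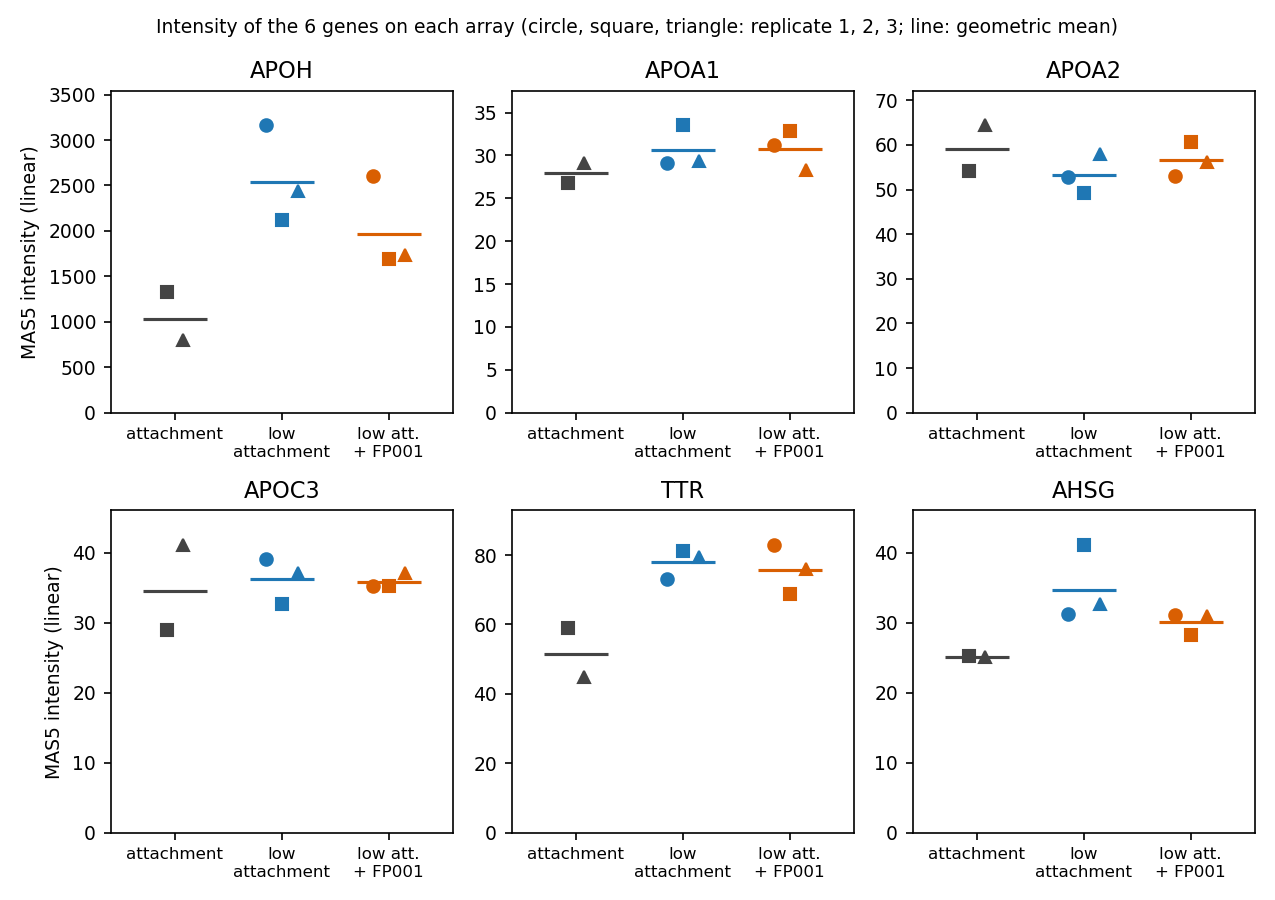
Intensity of each of the 6 genes (linear scale from 0, a scale of its own per gene) on the 8 arrays by group. Circles, squares and triangles are replicates 1, 2 and 3, and lines are geometric means of 2 attachment arrays or 3 low-attachment arrays. APOH and TTR lie higher on every low-attachment array than on both attachment arrays, whereas the groups of APOA2 and APOC3 overlap.

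TTR read 58.8 and 44.9 on attachment replicates 2 and 3. It read 73.2, 81.1 and 79.6 on the low-attachment arrays, and 82.9, 68.8 and 76.0 with FP001. Every low-attachment array was above both attachment arrays, and the low-attachment groups lay within the same range. Mean intensity was 51.4 on attachment plates (log2 SD 0.28, n = 2), 77.9 on low-attachment plates (0.08, n = 3) and 75.7 with FP001 (0.13, n = 3). TTR was 1.52-fold higher on low-attachment plates (log2 difference 0.60 ± 0.13) and 1.47-fold higher with FP001 (0.56 ± 0.13) than on attachment plates. FP001 differed from normal medium by -0.042 ± 0.12. Without attachment replicate 3 the differences against attachment plates were 0.40 and 0.36, and without replicate 2 they were 0.80 and 0.75.

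AHSG read 25.2 and 25.1 on the attachment arrays, close to the array medians. On low-attachment replicates 1, 2 and 3 it read 31.2, 41.1 and 32.7, and with FP001 31.1, 28.3 and 31.0. All 3 groups were separate from each other, with normal medium on low-attachment plates highest, although only a small step separated the highest FP001 array from the lowest low-attachment array. AHSG was 1.38-fold higher on low-attachment plates (log2 difference 0.47 ± 0.14) and 1.20-fold higher with FP001 (0.26 ± 0.14) than on attachment plates, and FP001 differed from normal medium by -0.21 ± 0.12. Low-attachment replicate 2 was the highest array. Without it the difference between low-attachment and attachment plates was 0.35, and that between FP001 and normal medium was -0.085. For a gene this dim a constant added to all values matters: on the log2(intensity + 16) scale the difference was 0.31. The files give no detection call, so whether AHSG, or the similarly dim APOA1 and APOC3, stood above background is not known.

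The log2 means of APOA1, APOC3 and APOA2 differed between groups by at most 0.15. APOA1 read 26.8 and 29.1 on attachment plates, 29.2, 33.5 and 29.3 on low-attachment plates and 31.2, 32.9 and 28.3 with FP001. Its log2 difference was 0.13 ± 0.13 on low-attachment plates and 0.14 ± 0.13 with FP001. The lowest low-attachment array, at 29.2, lay just above the higher attachment array, at 29.1, and the FP001 group overlapped the attachment arrays.

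APOC3 read 29.0 and 41.1 on the attachment arrays, wider apart than its 6 low-attachment values of 32.7 to 39.1. Its log2 differences against attachment plates were 0.069 ± 0.15 and 0.054 ± 0.15, and they turned to -0.18 and -0.20 without attachment replicate 2. APOA2 read 54.2 and 64.5 on attachment plates, 49.2 to 57.9 on low-attachment plates and 53.1 to 60.6 with FP001. Its log2 differences were -0.15 ± 0.12 and -0.064 ± 0.12, and without attachment replicate 3 they were -0.028 and 0.061. Leaving out 1 attachment array thus turned the direction of APOC3 in both comparisons and that of APOA2 in the comparison with FP001.

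Set against the whole array, 4 of the 6 genes did not overlap and were higher in the comparison of low-attachment with attachment plates (APOH, TTR, AHSG and APOA1), where 22.2% of the 10916 genes tested did so, 23.4% were lower without overlap and 45.6% were either. With FP001 against attachment plates 3 of the 6 did so, where 26.5% of all genes did, 26.2% were lower and 52.8% either. In the comparison of FP001 with normal medium 1 of the 6, AHSG, did not overlap and was lower, where 9.01% of all genes did, 8.48% were higher and 17.5% either. All 6 passed the filter on low values. The fit over all genes called APOH and TTR as higher in each comparison against attachment plates, where it called 4.31% and 8.08% of all genes as higher, and none of the 6 as lower, where it called 5.76% and 11.4%. It called none of the 6 between the low-attachment groups, where it called 0.11% of all genes (0.0366% higher and 0.0733% lower) and where, in limma, 0 of the 6 had an unadjusted p under 0.05. With the replicate block, run because same-numbered arrays of these groups varied together, it again called 0 of the 6, and 1, APOH, had an unadjusted p under 0.05. Since the genes were chosen from the same comparisons, these counts are a description. The median log2 difference of the 6 was 0.30 and 0.20 against attachment plates, where that of all genes was 0.0077 and 0.018. Both comparisons use the same 2 attachment arrays.

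**Figure D2:**
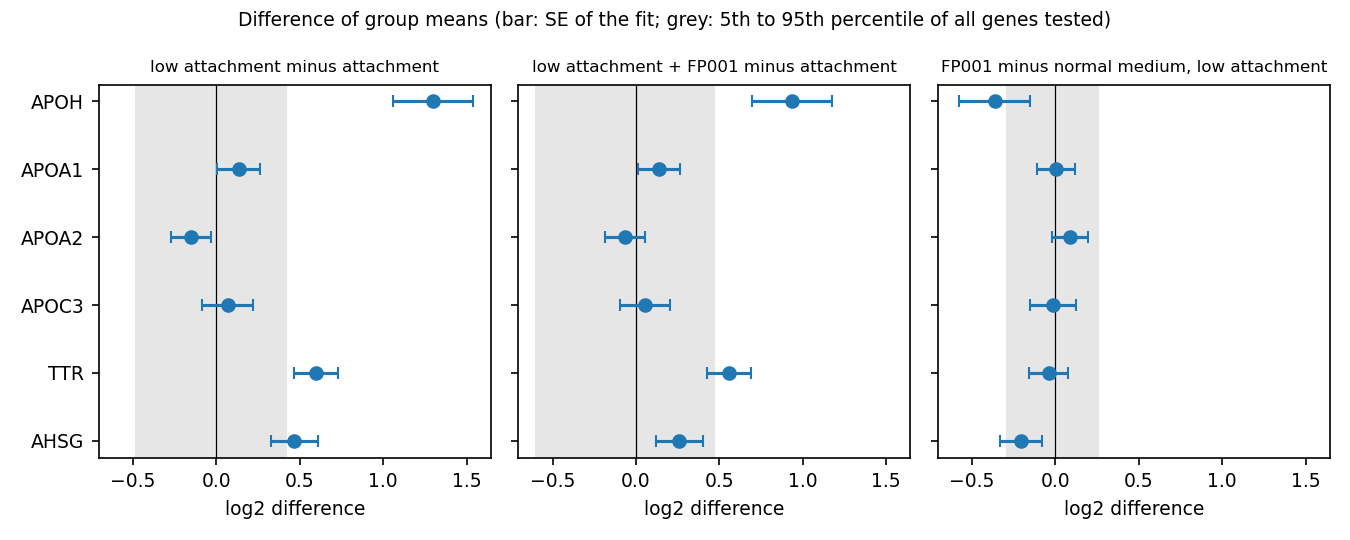
Log2 difference of group means for the 6 genes in the 3 comparisons, with bars of 1 SE, and in grey the range from the 5th to the 95th percentile of the 10916 genes tested. APOH (1.30 and 0.93) and TTR (0.60 and 0.56) lie right of the grey range in both comparisons against attachment plates, and AHSG (0.47) in the first of them.

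APOA1 and APOC3 lie next to each other on chromosome 11 with APOA4 and APOA5 on the side of APOC3, by the order of genes in RefSeq. APOA4 and APOA5 are not among the 6 genes but belong to a list made with earlier results of these data known, so their tests are not independent of that choice. APOA4, which is secreted with intestinal lipoproteins, read 24.7 and 28.0 on attachment plates, 36.6, 34.3 and 34.8 on low-attachment plates and 35.4, 34.6 and 33.5 with FP001. Every low-attachment array was above both attachment arrays. APOA4 rose 1.34-fold on low-attachment plates (log2 difference 0.42 ± 0.11, adjusted p = 0.0401 by limma over all genes) and 1.31-fold with FP001 (0.39 ± 0.11, adjusted p = 0.0359). On the log2(intensity + 16) scale the differences were 0.28 and 0.26, still called (adjusted p = 0.0418 and 0.038). APOA4 was about as dim as AHSG on attachment plates, so whether it stood above background there is not known. Its calls were lost with the replicate block (adjusted p = 0.0819 and 0.0763). The first was also lost with no filter on low values (0.0515) and without any 1 array other than FP001 replicate 1 (0.0509 to 0.23). The second was lost without attachment replicate 2 or 3, low-attachment replicate 2 or 3, or FP001 replicate 1 or 2 (0.0513 to 0.214). APOA5, which promotes triglyceride clearance, had log2 differences of 0.33 ± 0.11 (adjusted p = 0.0725) and 0.24 ± 0.11 (adjusted p = 0.134).

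AHSG lies on chromosome 3 beside FETUB, HRG and KNG1, which encode fetuin-B, histidine-rich glycoprotein and kininogen, all secreted proteins of the cystatin superfamily. FETUB reached the array median on 1 of 8 arrays and HRG on 0, and neither was tested. HRG read at most 12.0 on any of the 8 arrays. KNG1 had 2 probe sets that disagreed. The brighter one, which stood for the gene in the fit, had log2 differences of 0.20 ± 0.19 (adjusted p = 0.538) and 0.32 ± 0.19 (adjusted p = 0.254). The other read 18.2 and 17.8 on attachment plates, 38.8, 39.5 and 33.3 on low-attachment plates and 27.5, 26.7 and 19.1 with FP001, the same order of groups as for AHSG.

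**Figure D3:**
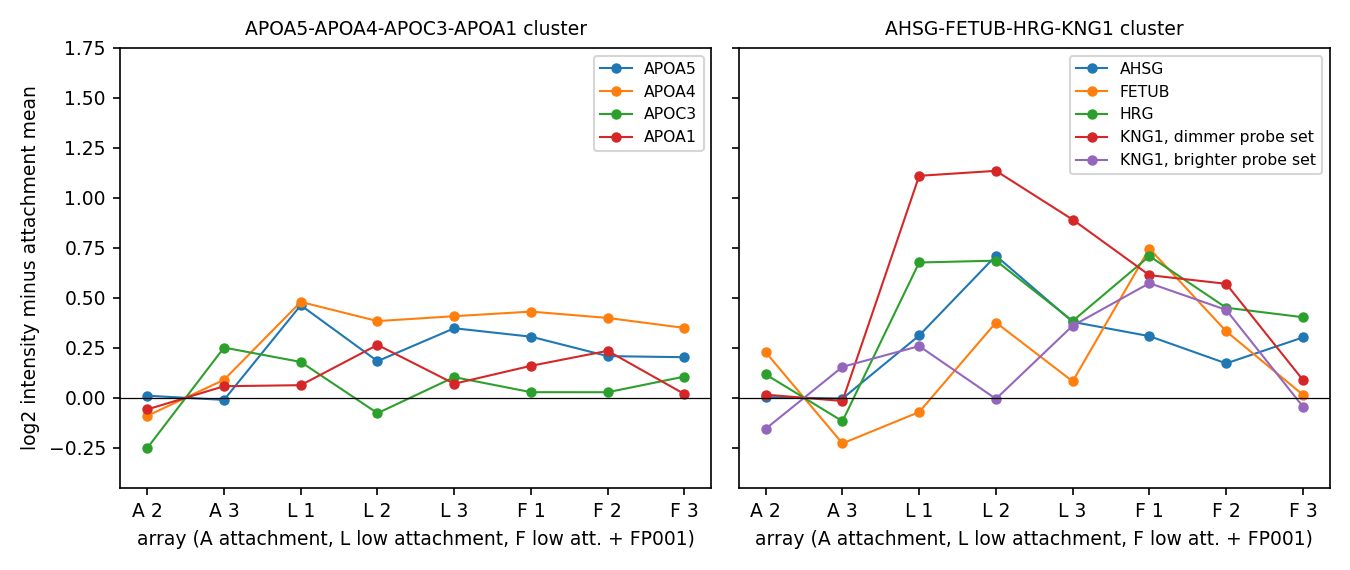
Log2 intensity relative to the attachment mean on each of the 8 arrays, for genes of the APOA5-APOA4-APOC3-APOA1 cluster and of the AHSG-FETUB-HRG-KNG1 cluster, lines joining the points of 1 probe set. APOA4 and APOA5 lie above 0 on all 6 low-attachment arrays whereas APOC3 does not, and the 2 probe sets of KNG1 differ on low-attachment replicates 1 and 2.

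Other genes of the same systems were taken from 5 lists made by known role: 131 genes, of which 64 were named on the array and 47 were tested. The lists were made with earlier results of these data known. The shares called and the adjusted p-values of listed genes are therefore not independent of that choice. On low-attachment against attachment plates 7 rose, 6 fell and 34 did not pass the test (27.7% called, against 10.1% of all genes). With FP001 against attachment plates 7 rose, 10 fell and 30 did not pass (36.2%, against 19.5%). By direction, 4.31% of all genes were called higher and 5.76% lower in the first comparison, and 8.08% and 11.4% in the second. The shares called in the 2 comparisons were 30% and 40% of other apolipoproteins and 30.8% and 46.2% of lipoprotein assembly and uptake genes. They were 25% and 25% of other secreted proteins, 0% and 25% of vitamin A and thyroid hormone genes, and 37.5% and 37.5% of transcription factors. The balance of directions among listed genes in the second comparison depended on single arrays and on scaling. It was 1 up and 8 down without attachment replicate 3, 4 up and 4 down without attachment replicate 2, 3 up and 9 down without FP001 replicate 1, 4 up and 9 down without FP001 replicate 2, and 10 up and 10 down after quantile normalization. In the first comparison it was 3 up and 4 down without attachment replicate 3, 5 up and 3 down without attachment replicate 2, and 9 up and 5 down after quantile normalization. Counts of all genes moved with the scaling, at 471 up and 629 down as deposited and 612 up and 512 down after quantile normalization for the first comparison, and 882 up and 1244 down against 1241 up and 968 down for the second.

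Of 10 other apolipoproteins tested, 2 rose and 1 fell on low-attachment plates (median log2 difference 0.10). APOC1, which sits on very-low- and high-density lipoprotein, read 76.8 and 81.8 on attachment plates and 33.6, 38.7 and 43.5 on low-attachment plates. It fell 2.07-fold there (log2 difference -1.05 ± 0.13, adjusted p = 0.00147) and 2.04-fold with FP001 (-1.03 ± 0.13, adjusted p = 0.000992), in the direction opposite to APOH and TTR. APOD, a lipocalin that carries small lipophilic molecules, read 40.4 and 39.4 on attachment plates, 71.9, 73.2 and 108.3 on low-attachment plates, and 45.4, 49.6 and 56.9 with FP001. It rose 2.08-fold on low-attachment plates (1.06 ± 0.17, adjusted p = 0.00476), and with FP001 its difference from attachment plates was 0.34 ± 0.17 (adjusted p = 0.188, or 0.0484 with the replicate block). The block also grouped the attachment arrays by number, although these showed no pairing.

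With FP001 against attachment plates 2 of these 10 apolipoproteins rose and 2 fell (median 0.14). Beside APOA4 and APOC1 these were CLU, the extracellular chaperone clusterin, which rose 1.24-fold (0.31 ± 0.09, adjusted p = 0.0342), and APOE, the ligand for lipoprotein uptake by receptors, which fell (-0.59 ± 0.17, adjusted p = 0.0387). The call for CLU was lost with arrays divided by their median (adjusted p = 0.0551) and without either attachment array (0.146 and 0.112), low-attachment replicate 2 (0.0509) or any 1 of FP001 replicates 1, 2 and 3 (0.0516, 0.0691 and 0.0797). The call for APOE was lost without attachment replicate 2 (0.115) or 3 (0.18) and without low-attachment replicate 2 (0.0505) or 3 (0.0547).

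Of 13 genes of lipoprotein assembly and uptake, 0 rose and 4 fell on low-attachment plates (median -0.068), and 0 rose and 6 fell with FP001 (median -0.19). PON1, an esterase carried on high-density lipoprotein, read 95.3 and 70.8 on attachment plates, 34.9, 36.6 and 37.5 on low-attachment plates and 20.6, 34.9 and 29.3 with FP001. It fell 2.26-fold on low-attachment plates (-1.18 ± 0.20, adjusted p = 0.00597) and 2.97-fold with FP001 (-1.57 ± 0.20, adjusted p = 0.000883), and the first call was lost without attachment replicate 2 (0.0742). The value of 20.6, on FP001 replicate 1, lay below the array median of 23.7, so the size of the fall with FP001 is uncertain. VLDLR, a receptor for APOE-bearing particles, fell 2.00-fold and 2.18-fold (adjusted p = 0.000427 and 0.000144), and LRP1, another receptor of that family, fell 1.43-fold and 1.61-fold (adjusted p = 0.0396 and 0.00829). ANGPTL4, an inhibitor of lipoprotein lipase, fell 1.76-fold and 1.97-fold (adjusted p = 0.00578 and 0.0014).

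LRP1 on low-attachment plates was near the threshold: the call was lost with quantile normalization (adjusted p = 0.0533), with no filter (0.0527), and without attachment replicate 2 (0.286), low-attachment replicate 1, 2 or 3 (0.0999, 0.0625 and 0.0825) or FP001 replicate 2 (0.056). With FP001 its call was lost without attachment replicate 2 (0.0953), and that of ANGPTL4 on low-attachment plates without attachment replicate 3 (0.0616). The other falls with FP001 were LCAT, which esterifies cholesterol on high-density lipoprotein (1.45-fold, adjusted p = 0.0226), and PON2, an intracellular relative of PON1 (1.25-fold, adjusted p = 0.0229). LCAT missed the threshold without attachment replicate 2 or 3 (0.101 and 0.105). PON2 missed it without a trend in the variance (0.0551) and without attachment replicate 2 (0.17) or FP001 replicate 1 or 2 (0.0604 and 0.0504).

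Of 12 other liver-type secreted proteins, 3 rose and 0 fell in each comparison against attachment plates (medians 0.35 and 0.35). CP, the copper-carrying ferroxidase ceruloplasmin, read 1375 and 880.4 on attachment plates, 2909, 2396 and 2384 on low-attachment plates and 1938, 1592 and 1569 with FP001. It rose 2.32-fold on low-attachment plates (1.21 ± 0.17, adjusted p = 0.0023) and 1.54-fold with FP001 (0.62 ± 0.17, adjusted p = 0.0292). As for APOH, replicate 1 was the highest array of each low-attachment group and attachment replicate 3 the lowest of all. AMBP, the precursor of the carrier alpha-1-microglobulin, rose 1.70-fold (adjusted p = 0.00164) and 1.39-fold (adjusted p = 0.0105). IGFBP1, which binds insulin-like growth factors, rose 1.88-fold (adjusted p = 0.0102) and 1.80-fold (adjusted p = 0.00944).

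The calls for CP and AMBP on low-attachment plates held in all 8 fits that each left out 1 array. With FP001, CP missed the threshold without attachment replicate 3 (log2 difference 0.30, adjusted p = 0.223) or FP001 replicate 1 or 2 (0.0793 and 0.0543), and AMBP without attachment replicate 2 or 3 (0.0676 and 0.0578). IGFBP1 missed it without attachment replicate 3 in both comparisons (0.0978 and 0.0842).

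TTR works with retinol-binding proteins and thyroid hormone, and of 23 genes of vitamin A and thyroid hormone handling 4 were tested. On low-attachment plates 0 of them passed in limma (0 rose and 0 fell, median 0.050), the nearest being STRA6, the retinol-binding protein receptor (log2 difference 0.44 ± 0.15, adjusted p = 0.0897, or 0.0103 with the replicate block). The blocked value has the same limit as that of APOD. With FP001 1 fell (median -0.022): DHRS3, which reduces retinal to retinol, fell 1.55-fold (adjusted p = 0.0101), and missed the threshold without attachment replicate 2 (0.111).

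Of 8 liver-type transcription factors tested, 2 rose and 1 fell in each comparison against attachment plates (medians 0.28 and 0.28). They were FOXA1, FOXA2, FOXA3, ONECUT2, PROX1, PPARA, GATA4 and GATA6. No gene of the HNF1, HNF4 or C/EBP families was among them. Of the 24 factors listed only 9 were named on the array, so the levels of the others could not be read. FOXA1 rose 1.58-fold on low-attachment plates (0.66 ± 0.13, adjusted p = 0.0111) and 1.48-fold with FP001 (0.56 ± 0.13, adjusted p = 0.0151). PPARA, the nuclear receptor for fatty acids, read 34.5 and 28.1 on attachment plates, and whether it stood above background there is not known. It rose 1.63-fold (adjusted p = 0.0226) and 1.54-fold (adjusted p = 0.0261). FOXA2 went the other way and fell 1.33-fold (-0.41 ± 0.09, adjusted p = 0.0175) and 1.39-fold (-0.47 ± 0.09, adjusted p = 0.00587). Without attachment replicate 2 or 3, FOXA1 missed the threshold (adjusted p = 0.0873 and 0.0634 on low-attachment plates, 0.0998 and 0.0629 with FP001), as did PPARA (0.0583 and 0.157, then 0.059 and 0.163). FOXA2 missed it on low-attachment plates without replicate 2 or 3 (0.132 and 0.0601) and with FP001 without replicate 2 (0.0646). PPARA also missed it without low-attachment replicate 1 (0.0539) in the first comparison and without FP001 replicate 1 or 3 (0.0741 and 0.0506) in the second.

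**Figure D4:**
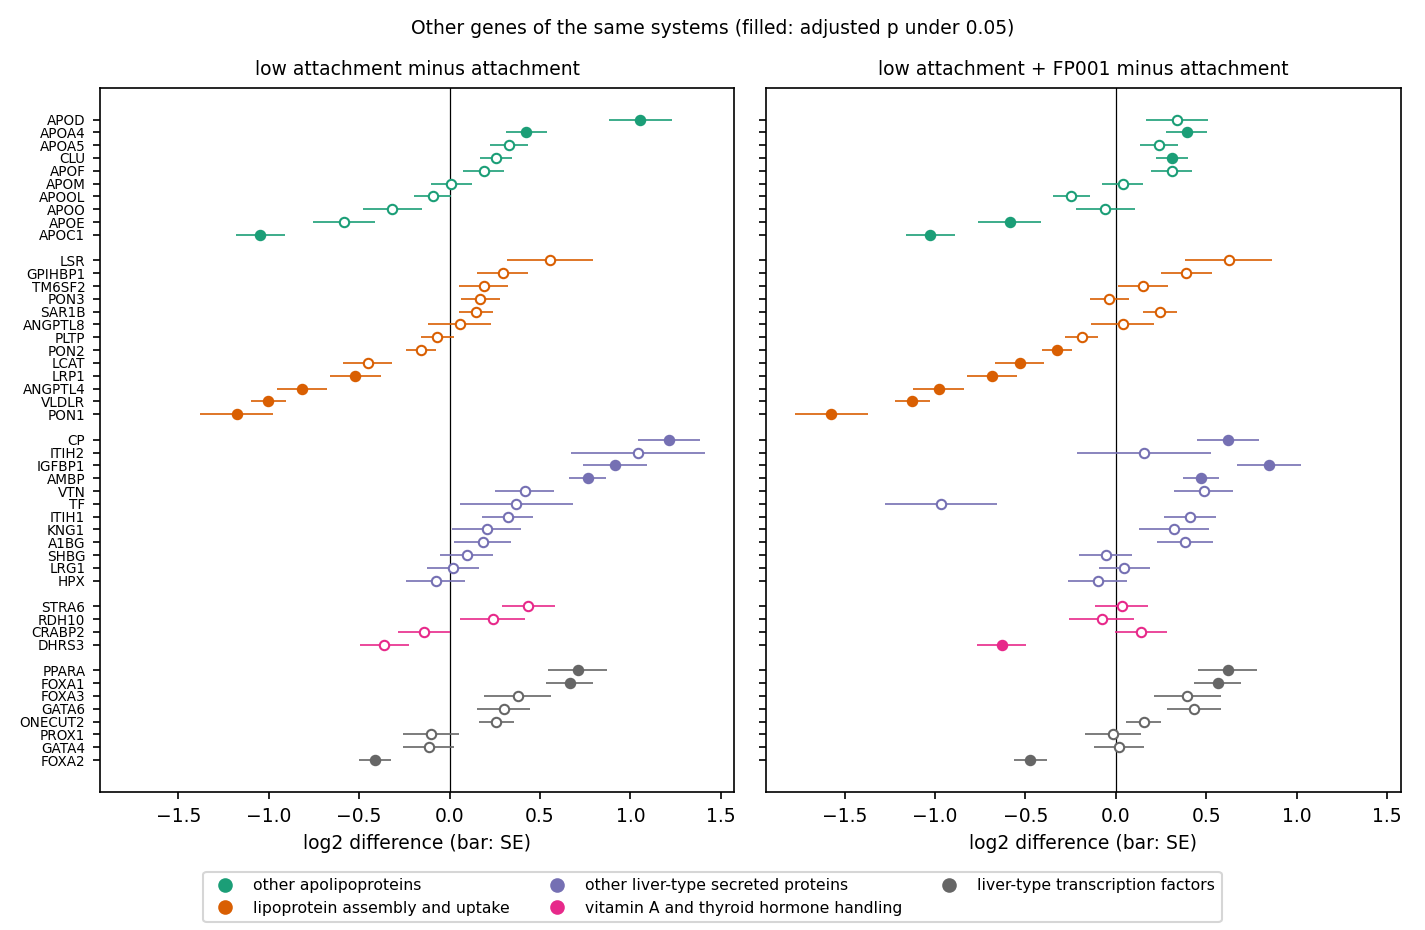
Log2 difference with its SE for the 47 tested genes of the 5 lists, on low-attachment plates and with FP001, each against attachment plates. Filled points passed an adjusted p of 0.05: 13 in the first comparison and 17 in the second, with the lipoprotein assembly and uptake genes called on the lower side and the other liver-type secreted proteins on the higher side.

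Between FP001 and normal medium on low-attachment plates the fit called 0 of the 47 listed genes in limma, with 7 at an unadjusted p under 0.05. With the replicate number as a block it called 4, all lower with FP001. The pairing was read from the values of these same arrays. The SE of the block also drew on the attachment arrays, which showed no pairing. Over all genes the block raised the count from 12 to 142. The iron carrier TF, transferrin, read 61.9, 130.0 and 142.8 in normal medium and 31.7, 48.9 and 46.0 with FP001, and fell 2.53-fold (log2 difference -1.34 ± 0.13, adjusted p = 0.0015 with the block and 0.139 without). Without low-attachment replicate 1 it was called without the block as well (log2 difference -1.72, adjusted p = 0.00752). APOD fell 1.64-fold (adjusted p = 0.0161 with the block, 0.149 without), CP 1.51-fold (0.0191 and 0.20) and ITIH2, a hyaluronan-binding serum protein, 1.85-fold (0.0369 and 0.355).

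By the root mean square difference of centred log2 values over the 8 arrays, the genes most like APOH were GALNT5, a glycosyltransferase that starts O-glycans (0.155), CTSO, a cysteine protease (0.161), and EHF, an epithelial transcription factor of the ETS family (0.162). The log2 values of APOH itself had an SD of 0.63. GALNT5 read 90.7 and 66.7 on attachment plates, 266.7, 181.5 and 159.3 on low-attachment plates and 188.2, 136.8 and 154.6 with FP001. These genes had the same lowest array, attachment replicate 3, and the same highest array, low-attachment replicate 1, as APOH. The genes most like TTR, whose SD was 0.30, were MYORG (0.0764), CHST15, a sulfotransferase of chondroitin sulfate (0.078), and STIM2, a calcium sensor of the endoplasmic reticulum (0.0804). The other members varied too little for such a match, with an SD of 0.11 to 0.23.

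**Figure D5:**
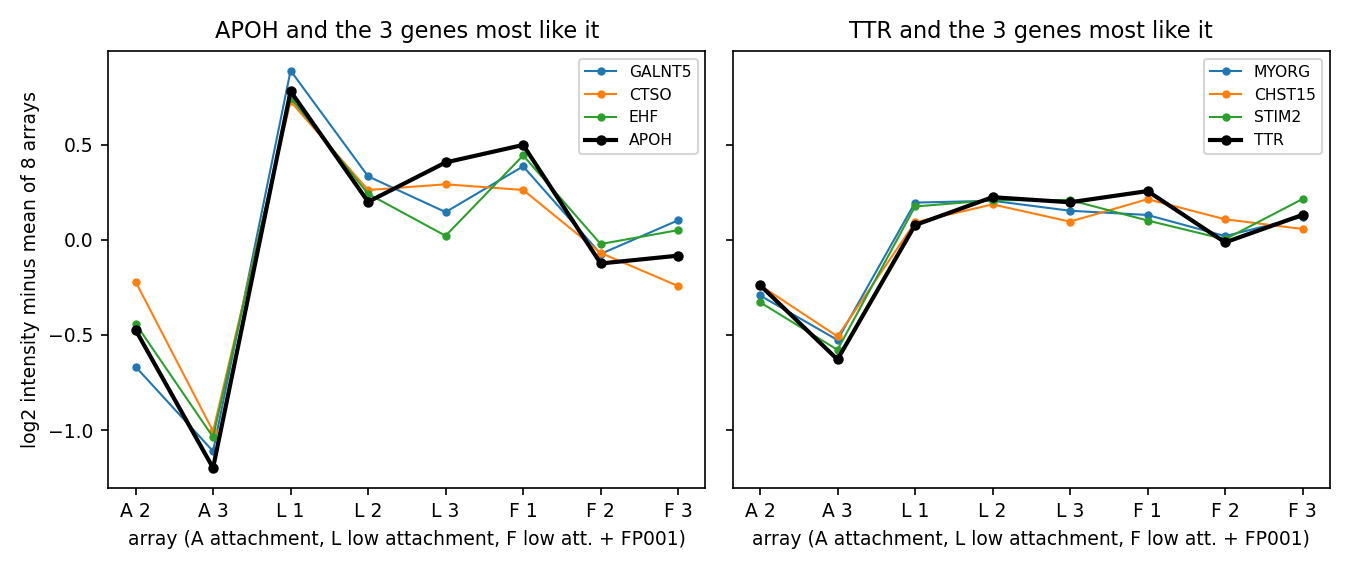
Log2 intensity minus its mean over the 8 arrays for APOH (left, black) and TTR (right, black) with the 3 genes nearest to each by root mean square difference, lines joining the points of 1 gene. Each set is lowest on attachment replicate 3, and the APOH set is highest on low-attachment replicate 1.

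The label of the 6 genes as liver-type was set against cell type markers. Of 12 hepatocyte markers 6 were named, and 2 of these were at or above the array median on all 8 arrays. AFP, alpha-fetoprotein, was below it on all 8, and ALB, albumin, read 16.6 and 14.9 on attachment plates, 29.9, 25.9 and 21.6 on low-attachment plates and 21.5, 18.6 and 20.6 with FP001, above the median on 2 arrays. Of the 4 tested, 1 rose in each comparison against attachment plates: TAT, the liver's tyrosine aminotransferase, by log2 differences of 1.61 and 1.54 (adjusted p = 0.00354 and 0.00255). On attachment replicate 3 TAT read 22.1, below the array median of 23.7, so the size of its rise is uncertain. Summed hepatocyte marker intensity was 164.2 to 169.3 on attachment plates, 207.0 to 248.6 on low-attachment plates and 192.2 to 231.9 with FP001. This separation from attachment plates rested on TAT. Without it the sums of the other 5 were 137.0 to 147.2, 144.8 to 149.7 and 138.7 to 141.0. The attachment range then overlapped both low-attachment groups, which did not overlap each other. ASGR1, an asialoglycoprotein receptor subunit, had log2 differences of -0.26 and -0.25 (adjusted p = 0.17 and 0.135). All arrays were of 1 cell line, A549, so the markers describe the state of that line. The part of a liver-like state in the levels of the 6 genes was not tested.

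Of 8 lung epithelium markers named 4 were at or above the median on all 8 arrays, and their summed intensity overlapped between groups (308.1 to 319.8, 291.5 to 322.1 and 303.0 to 350.7). The keratin KRT7 fell on low-attachment plates (log2 difference -0.54, adjusted p = 0.0422). All other lung markers tested lay in the other direction there, and none was called. Their log2 differences were 0.27 for SFTPB, 0.18 for SFTPC, 0.24 for SFTPD, 0.16 for NKX2-1 and 0.25 for NAPSA. Among 4 intestinal markers named, VIL1, the brush border protein villin, rose by 0.59 and 0.44 (adjusted p = 0.0215 and 0.0453), and their sum was 147.0 to 162.9, 177 to 207 and 184 to 203. Summed leukocyte markers, 3 named, were 423.6 to 503.0, 557.0 to 789.3 and 621.9 to 953.5, and 1 of them rose on low-attachment plates and 2 with FP001. LYZ, lysozyme, read 18.6 and 17.5 on attachment plates, 133.5, 61.5 and 78.0 on low-attachment plates and 175.2, 69.8 and 106.7 with FP001, and rose in both comparisons (adjusted p = 0.00414 and 0.00124). Both attachment values lay below their array medians of 23.3 and 23.7. LYZ thus passed the filter only through the arrays where it was high, so these p-values are a description. CD68, a lysosomal protein of macrophages, rose with FP001 by 0.74 (adjusted p = 0.0146). Summed fibroblast markers, 2 named, were 31.6 to 96.7, 27.9 to 250.4 and 82.7 to 440.1, nearly all of it LUM. Summed endothelial markers, 3 named and 0 tested, were 46.1 to 52.3, 51.2 to 55.9 and 55.8 to 71.5. The part of these shifts in the levels of the 6 genes was not tested.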

How the data were processed

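RNA of A549 cells was read on 9 Affymetrix arrays. The deposited table holds linear intensities, and the submitters' processing notes name MAS5 for them. The settings of MAS5 are unstated in those sources. Per the labels' protocols cRNA was made with a 3' labelling kit, so which part of a transcript a probe set reads is uncertain. Of 53617 probe sets 16098 carried a single gene symbol, all matched to RefSeq by gene identifier, 0 carried several and 37519 stayed unnamed.

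Intensities were taken to log2 without adding a pseudocount. Probe sets at or above the array median on at least 3 of the 8 arrays were kept (27942, of which 11711 named), the brightest standing for each of 10916 genes. Group means were fitted with limma 3.58.1 in R 4.3.3 (eBayes with a trend, 5 residual and 5.6 prior degrees of freedom), two-sided, adjusted by Benjamini-Hochberg over all genes and called under 0.05. The fit was tested on simulated data. Since separate cultures are not stated, p-values cover the spread between these arrays alone, possibly technical, and the number of arrays limits precision.

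The members and lists were chosen with earlier results of these data known. All probe sets of the 6 genes were named, up to 6 called genes per list and comparison with the largest change, the 3 genes most like a member with an SD of at least 0.3, the brightest tested marker of each cell type (ALB and AFP added for the label check), and the genes sharing a locus. STRA6, TF, ITIH2 and LYZ were named after their values were seen.

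Same-numbered arrays of the low-attachment groups had deviations from the group mean that correlated at 0.469, 0.301 and 0.227, against -0.34 to 0.123 for other numbers, so the numbers were taken to pair them. Attachment arrays gave -0.245 to 0.133 with arrays of their own number, so no pairing was seen for them. The block, run as an alternative, nevertheless used the number of every kept array, attachment arrays included. Blocked values against attachment plates therefore rest on a pairing that these correlations do not show. The SE of blocked values between the low-attachment groups also draws on the attachment arrays. The further alternatives were other filters, scalings, a pseudocount of 16, all 9 arrays and each array left out.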

Additional observations from a re-analysis of the deposited data

How the results depend on the processing

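Of 252 alternative values of the 6 genes' log2 differences, 229 moved by less than the SD between replicates, 23 moved by more and 0 reversed a called value. Many of the 229 could not move, so the count is no measure of stability. Leaving out an array outside the 2 groups compared changes nothing, nor does the choice of probe set, as each gene had 1. A reversal was counted only for called values, those of APOH and TTR against attachment plates. Of 86 neighbouring probe set pairs with equal values on the 6 low-attachment arrays, 86 were equal on attachment replicates 2 and 3. On attachment replicate 1 only 1 of them was. Values from all 9 arrays are therefore no measure of how firm a difference is. With all 9 arrays, where attachment replicate 1 follows no other array, the differences on low-attachment plates were 3.89 for APOH, -1.19 for APOA1, 1.32 for APOA2, 1.01 for APOC3 and -1.07 for AHSG, and with FP001 3.52, -1.19, 1.41, 1.00 and -1.27. That fit called 0 genes in each of the 3 comparisons (198, 330 and 11 at an unadjusted p under 0.05 in limma), 0 listed genes, and reversed APOA4 (-0.40 and -0.43), VLDLR (0.55 and 0.43), LRP1 (0.54 and 0.38), ANGPTL4 (0.24 and 0.078), FOXA1 (-0.92 and -1.02) and PPARA (-0.80 and -0.89) in the first 2 comparisons, and APOE (0.33), PON2 (2.78) and DHRS3 (0.072) with FP001. With log2(intensity + 16) AHSG on low-attachment plates was 0.31. Leaving out 1 array gave, on low-attachment plates and with FP001, -0.28 to -0.028 and -0.19 to 0.061 for APOA2, -0.18 to 0.32 and -0.20 to 0.31 for APOC3, and 0.40 to 0.80 and 0.36 to 0.75 for TTR.

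Leaving out 1 array, the genes called numbered 362 to 1301 on low-attachment plates (362, 449 and 719 without attachment replicate 2, attachment replicate 3 and low-attachment replicate 3). With FP001 they numbered 660 to 2305 (660 and 1106 without attachment replicates 2 and 3, 1278 and 1335 without FP001 replicates 1 and 2). Between low-attachment groups they numbered 0 to 11, with 1 without low-attachment replicate 2 or 3 and 0 without any 1 FP001 array. Listed genes called numbered 7 to 14 and 8 to 19 against attachment plates, lowest without attachment replicate 3 and without replicate 2. Between low-attachment groups a fit without a trend called 0 genes (1226 unadjusted), the replicate block called 142 genes and 4 listed genes, and 1 listed gene was called without low-attachment replicate 1. Against attachment plates the block gave 18 and 19 listed genes in place of 13 and 17, and ended no call of a listed gene other than those of APOA4. That block also grouped the attachment arrays by number, although these showed no pairing. Settings of the filter, scaling and probe set kept counts of calls against attachment plates within 1.5 times the main value. The cause of these shifts was not tested.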
